A study of Mus musculus with 6 samples.

Results

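Grb10 and Zrsr1 are imprinted genes of mouse chromosome 11, and CpG methylation was described here in the interval around each, chr11:11870000-12000000 for Grb10 and chr11:22910000-22940000 for Zrsr1 (mm39). The measurements came from neocortex of mice at postnatal day 5, in 3 Chd8+/- samples, which carry 1 mutant copy of the gene for the chromatin remodeller CHD8, and 3 wild-type (WT) samples, by reduced representation bisulfite sequencing (RRBS). RRBS reads DNA next to MspI sites (CCGG), and bisulfite turns unmethylated cytosine into uracil, so that the methylation level of a CpG is the percent of its reads that still carry cytosine. Only strands with 10 or more reads were listed, so the level of a CpG in a library can rest on 1 strand alone. A CpG was used when the reads of its strands together reached 10 in at least 2 samples of each genotype. By this rule 127 of the 230 CpGs listed in any library were kept at Grb10 and 60 of 103 at Zrsr1, together 187 of the 864621 CpGs kept on all autosomes. The Chd8 allele, the strain and the sex of the mice are not given in the sources used here, and neither is whether each library is a different mouse. The p-values therefore refer to the spread among these libraries, which could be partly technical.

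Imprinted genes carry methylation on one parental copy of a control region, set in the egg or the sperm and kept in the body's cells. Grb10 encodes an adaptor protein that dampens insulin and growth factor receptor signalling. It is expressed from the maternal copy in most tissues, whereas neurons use the paternal copy from promoters at a CpG island inside the gene that is methylated on the maternal copy. Zrsr1, a retrogene related to the splicing factor U2AF, lies within an intron of Commd1, is transcribed in the opposite direction to it from the paternal copy, and is methylated on the maternal copy. In DNA from bulk tissue, a level near 50% can come from methylation of 1 allele in every cell or of both alleles in part of the cells, and these cannot be told apart from the level alone.

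RefSeq's promoter sequences (250 bases before to 50 after a start) are given on GRCm38.p6, so they were placed on the mm39 tables by the spacing of their CpGs alone. In 4 of the 5 entries for Grb10, Zrsr1 and Commd1, every listed CpG of the placed span fell on a CG of the sequence. These numbered 41 for the Grb10 promoter, 7 for Zrsr1, 13 for the Commd1 start that lies downstream of the Zrsr1 start and 12 for the upstream Commd1 start. No other offset in the interval had more than 3 matches in excess of mismatches. A second Grb10 start could not be placed. The placed sequences are shown because they hold the contrast between starts of intermediate level and unmethylated starts, 5′ to 3′ along each gene's strand, with CpGs kept for measurement in capitals.
Zrsr1, plus strand, chr11:22921755-22922054 (mm39): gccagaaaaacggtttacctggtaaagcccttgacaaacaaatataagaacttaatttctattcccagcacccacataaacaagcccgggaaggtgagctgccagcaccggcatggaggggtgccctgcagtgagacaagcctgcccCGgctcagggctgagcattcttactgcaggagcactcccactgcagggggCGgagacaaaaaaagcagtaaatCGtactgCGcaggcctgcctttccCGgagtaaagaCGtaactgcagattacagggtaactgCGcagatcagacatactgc
Commd1 start downstream of the Zrsr1 start, minus strand, chr11:22922817-22923116 (mm39): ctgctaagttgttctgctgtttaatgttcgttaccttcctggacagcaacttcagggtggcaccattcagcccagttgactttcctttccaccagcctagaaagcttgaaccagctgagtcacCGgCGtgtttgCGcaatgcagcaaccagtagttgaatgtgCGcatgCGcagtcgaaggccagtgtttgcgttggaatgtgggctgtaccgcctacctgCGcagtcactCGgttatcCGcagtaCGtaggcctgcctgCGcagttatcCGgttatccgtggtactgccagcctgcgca
Commd1 upstream start, minus strand, chr11:22932235-22932534 (mm39): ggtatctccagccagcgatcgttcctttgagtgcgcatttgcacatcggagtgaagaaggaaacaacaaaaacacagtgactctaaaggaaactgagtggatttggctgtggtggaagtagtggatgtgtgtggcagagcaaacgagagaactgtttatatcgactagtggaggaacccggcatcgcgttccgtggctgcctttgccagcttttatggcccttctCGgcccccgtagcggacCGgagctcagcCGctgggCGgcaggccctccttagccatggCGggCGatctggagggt
Grb10, minus strand, chr11:11987371-11987670 (mm39): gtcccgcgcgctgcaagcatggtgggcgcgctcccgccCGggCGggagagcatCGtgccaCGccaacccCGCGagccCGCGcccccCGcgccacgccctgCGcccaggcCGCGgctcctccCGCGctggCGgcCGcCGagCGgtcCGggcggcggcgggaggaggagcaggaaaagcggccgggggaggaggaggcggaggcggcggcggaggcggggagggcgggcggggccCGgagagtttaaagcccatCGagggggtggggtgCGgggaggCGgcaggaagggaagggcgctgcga

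The Grb10 sequence held 45 CpGs, against 10 in that of Zrsr1, 17 at the Commd1 start beside Zrsr1 and 18 at the upstream Commd1 start. The median over all 32851 RefSeq mouse promoters was 7. The MspI site CCGG occurred 4 times in the Grb10 and the Zrsr1 sequence and 2 times in each Commd1 sequence, and 52.8% of all promoters held it. The hexamer TGCCGC, which in its methylated form is bound by ZFP57, a zinc finger protein that keeps imprints, was searched on both strands. It occurred once in the Grb10 sequence and once at the upstream Commd1 start and was not in the other placed sequences, and 11.6% of all promoters held it.

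The placed starts fell into an unmethylated pair and a pair of intermediate level. Over the 23 kept CpGs of the Grb10 promoter the Chd8+/- samples stood at 0.175%, 0.155% and 1.06% and the WT samples at 0.223%, 0.309% and 0%. WT replicate 3 had values only at 11987394, 11987402, 11987417 and 11987436. Chd8+/- replicates 1 and 2 also lacked some of the 23, so these levels cover different CpGs. Over the 7 kept CpGs of the Zrsr1 promoter the Chd8+/- samples stood at 31.5%, 71.97% and 69.5%, against 44.2%, 36.9% and 62.6% in WT. Chd8+/- replicate 2 had no value at 22921952, 22921975 and 22921982, where Chd8+/- replicate 1 read 0%, so its level covers fewer CpGs. The genotypes overlapped at both promoters. At the Commd1 start beside Zrsr1, which lies within a run of windows near 50%, 11 CpGs were kept. They stood at 80.6%, 53.9% and 68.5% in Chd8+/- and 43.4%, 57.6% and 56.7% in WT, and the genotypes overlapped. The means were 67.7% ± 13.4 in Chd8+/- and 52.6% ± 7.95 in WT (SD, n = 3). At the upstream Commd1 start, where Chd8+/- replicate 2 had no kept CpG, the levels were 1.19% and 0% in Chd8+/-, against 0.273%, 0% and 1.11% in WT.

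Along Grb10, levels were described in windows of 500 bp aligned to the start of the chromosome, and 9 of 18 windows with data held the 3 CpGs required. A window was called near 50% when its mean over the 6 samples lay between 35% and 65%, and at least 2 such windows in a row formed a stretch. Since stretches were picked by level, their levels are a description. Grb10 had 1 stretch, chr11:11975501-11977000, which held 44 CpGs in 3 adjoining windows and lay 10.4 to 11.9 kb downstream of the placed start. Its level was 46.9%, 65.02% and 47.3% in the Chd8+/- samples and 47.0%, 50.9% and 55.6% in the WT samples, on 965 to 2174 reads summed over CpGs per library. The mean was 53.1% ± 10.3 in Chd8+/- and 51.2% ± 4.29 in WT (SD, n = 3), a difference of 1.92 points with a standard error of 6.46. The genotypes overlapped, and the 65.02% of Chd8+/- replicate 2 was the highest level.

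The near-50% level of the Grb10 stretch was an average over windows whose levels differed widely between libraries, mainly the Chd8+/- ones. In the first window, of 18 CpGs, the levels were 32.8%, 57.2% and 54.9% in Chd8+/- and 44.8%, 44.7% and 58.5% in WT. In the second, of 16 CpGs, they were 39.3%, 85.2% and 52.0% in Chd8+/- and 39.7%, 56.1% and 55.1% in WT. In the third, of 10 CpGs, they were 84.4%, 52.1% and 28.5% in Chd8+/- and 60.5%, 53.7% and 52.2% in WT. Among the 6 libraries Chd8+/- replicate 1 was lowest in the first and second windows and highest in the third, and Chd8+/- replicate 2 was highest in the second only. The 3 windows spanned 25.7, 45.9 and 56.0 points over the 6 samples.

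The other Grb10 windows with 3 or more CpGs lay outside the band of 35% to 65%. No CpG was kept in the 5000 bp on the lower side of the stretch. On its upper side 1 was kept, at 84.4%, 48.2% and 66.7% in Chd8+/- and 94.4%, 81.8% and 57.6% in WT. The windows at the placed start, 24 CpGs from 11987001 and 29 CpGs from 11987501, had mean levels of 0.614% and 0.586%, the second being the lowest of the interval. Upstream of the start, windows from 11988001 and 11988501 stood at 7.57% and 16.6%. The highest described window, 3 CpGs from 11961501, farther downstream, stood at 93.0%, 93.2% and 94.4% in Chd8+/- and 98.0%, 93.1% and 89.5% in WT. Another, from 11914001, stood at 73.8%. The 9 windows with 1 or 2 CpGs ranged from 1.47% to 88.6%. Among them the 2 CpGs from 11898001 averaged 41.2% over 4 libraries and the 2 from 11905001 averaged 27.0%. Outside the stretch the 83 CpGs averaged 19.6% ± 0.597 in Chd8+/- and 20.6% ± 3.43 in WT (SD, n = 3).

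At Zrsr1, 8 of 10 windows held 3 or more CpGs and 5 of these were near 50%. The stretch was chr11:22922501-22924500, with 29 CpGs in 4 windows from 0.496 to 2.495 kb downstream of the placed start. The fifth near-50% window, from 22921501 over the promoter, was separated from it by a window at 67.1%, just outside the band. The stretch level was 64.9%, 51.8% and 55.2% in Chd8+/-, against 41.8%, 44.5% and 39.8% in WT. The genotypes did not overlap, with a mean of 57.3% ± 6.81 in Chd8+/- and 42.0% ± 2.36 in WT (SD, n = 3) and a difference of 15.3 points with a standard error of 4.16. With a band of 40% to 60%, the window from 22923001 (38.5%) fell out and left the window from 22922501 without a neighbour. The stretch was then the windows from 22923501 and 22924001 alone, with a difference of 0.399 points and overlapping genotypes. With a band of 30% to 70% the stretch held 6 windows, with a difference of 11.1 points and no overlap.

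The largest difference of a Zrsr1 window lay in the second window of the stretch. The 5 CpGs from 22923001 to 22923500 stood at 54.1%, 55.0% and 69.3% in Chd8+/- and 34.2%, 12.6% and 5.69% in WT. Reads summed over these CpGs numbered 63 to 159 per library. The CpGs lay from 22923121 to 22923168 and were read on the reverse strand only, so the sums can hold the same read more than once. Each CpG had 12 to 18 reads in the WT libraries. In Chd8+/- replicates 1, 2 and 3 each had 31 to 33, 18 to 21 and 13 to 14 reads. The lowest Chd8+/- level lay above the highest WT level, and the difference was 42.0 points with a standard error of 9.91. Without this window, left out after its values were seen, the stretch stood at 67.2%, 51.13% and 52.3% in Chd8+/- and 43.3%, 51.10% and 46.9% in WT, a difference of 9.77 points with a standard error of 5.64. The genotypes then stayed apart by the small gap between Chd8+/- replicate 2 and WT replicate 2.

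The other Zrsr1 windows with 3 or more CpGs overlapped between the genotypes and did not share a direction. The 15 CpGs from 22922501 stood at 75.3%, 49.7% and 60.9% in Chd8+/- and 36.4%, 55.6% and 47.6% in WT. Their difference was 15.5 points with a standard error of 9.29. As the window with the most CpGs in the Zrsr1 stretch, it weighed most in the stretch mean. The 5 CpGs from 22923501 stood at 61.7%, 55.1% and 42.3% in Chd8+/- and 43.0%, 36.3% and 40.8% in WT, a difference of 13.0 points. The 4 CpGs from 22924001 stood at 43.6%, 52.6% and 32.2% in Chd8+/- and 69.99%, 52.6% and 51.7% in WT, a difference of −15.3 points. The promoter window from 22921501 had the widest spread within genotypes among the windows of both intervals with 3 or more CpGs. Its levels were 14.2%, 66.0% and 74.0% in Chd8+/- and 42.3%, 32.2% and 75.03% in WT. Chd8+/- replicate 2 was measured there only at 22921902 (41.2%) and 22921999 (90.9%), so this spread compares different CpGs between libraries. Beyond the stretch no CpG was kept for 5000 bp, and the windows at the upstream Commd1 start, from 22931501 and 22932001, stood at 0.626% and 0.257%. A window of 2 CpGs from 22939001, too few to be described by the rule, stood at 97.4%, 100% and 98.9% in Chd8+/- and 81.2%, 91.0% and 93.8% in WT, without overlap.

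**Figure D1:**
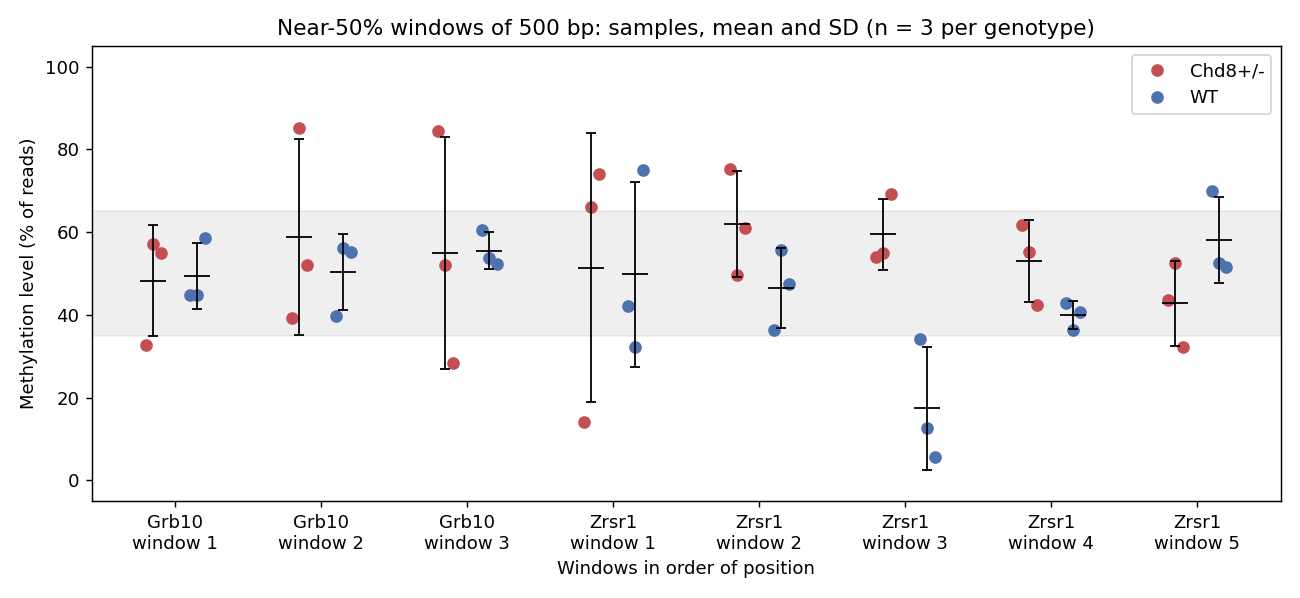
Methylation level (y axis, percent of reads) of the 3 near-50% windows of Grb10 and the 5 of Zrsr1, in order of position (x axis), with the 3 samples of each genotype as points, Chd8+/- left in red and WT right in blue, bars for mean and SD, and 35 to 65% shaded. The genotypes overlap except in the third Zrsr1 window, where the Chd8+/- samples lie between 54.1% and 69.3% and the WT samples between 5.69% and 34.2%.

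Near-50% levels made up 3 of 9 windows with 3 or more CpGs at Grb10, against 4 of 25 in the rest of chromosome 11 from 11 to 12 Mb, and 5 of 8 at Zrsr1, against 1 of 20 in the rest of 22 to 23 Mb. Over all autosomes they made up 10.2% of 106184 windows, and these shares were not compared by a test. In the rest of 11 to 12 Mb 8 windows stood under 5% and 9 above 80%, and in the rest of 22 to 23 Mb 8 and 8. At Grb10, 2 of 9 were under 5% and 1 above 80%, and at Zrsr1, 2 of 8 and 0.

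Single CpGs showed how the averages near 50% were built up. In the Grb10 stretch 42 of 44 CpGs had a mean over samples from 35% to 65%, with a median of 50.9%, but only 122 of the 250 values of single libraries lay in that range, with 58 below, 70 above and 25 at exactly 0 or 100%. In the Zrsr1 stretch 24 of 29 CpGs had such a mean, with a median of 49.8%, and 103 of 173 single values lay in the range. The first CpG of the Grb10 stretch, at 11975628, read 26.3%, 100% and 73.3% in Chd8+/- and 57.1%, 46.2% and 66.7% in WT. The last, at 11976880, read 100%, 51.4% and 37.0% in Chd8+/- and 52.6%, 42.5% and 46.9% in WT. Means ran from 30.3% at 11975943 to 65.1% at 11975847, each measured in 5 libraries. In the Zrsr1 stretch the first CpG, at 22922581, averaged 36.5% and the last, at 22924252, 44.7%, and means ran from 33.2% at 22923161 to 66.8% at 22922845.

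Neighbouring CpGs on the same strand had close levels in both stretches, a measure built from the same levels by which the windows were picked. For pairs at most 20 bp apart in the same library, which can share reads, the share of pairs whose levels lay within 5 points of each other was 78.6%, 94.7% and 75.4% in Chd8+/- and 80.7%, 75.9% and 83.3% in WT in the Grb10 stretch. In the Zrsr1 stretch it was 80%, 84.2% and 85% in Chd8+/- and 100%, 90% and 80% in WT. In the other near-50% windows of all autosomes it was 25.1% to 28.2% over the 6 libraries. The Grb10 stretch exceeded those windows by 54.9 points and the Zrsr1 stretch by 59.9 points on average, in 6 of 6 libraries each, and the exact two-sided paired permutation test gave p = 0.03125 for each, which is the lowest value 6 libraries can reach. This comparison was chosen after the data were seen. It sets 1 locus against 9724 windows, so the libraries replicate the measurement and not the locus. Windows of both sets were picked by their mean, which can average high and low CpGs, and single CpGs were not matched in level. How much of the excess comes from this choice was not tested. The median distance in a pair was 11, 10 and 11 bp and the median coverage 17.5, 50 and 31 reads in the Grb10 stretch, the Zrsr1 stretch and the other windows. Among pairs whose coverage differed by at most 10%, the excess was 59.5 points at Grb10 and 60.6 points at Zrsr1.

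**Figure D2:**
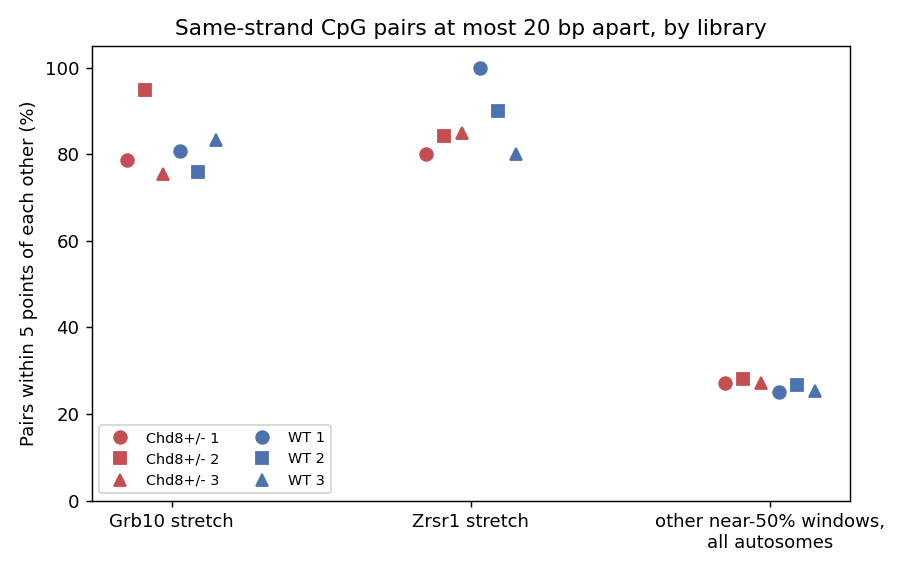
Share of same-strand CpG pairs at most 20 bp apart whose levels lie within 5 points (y axis, percent), with one symbol per library, for the stretches of Grb10 and Zrsr1 and for the other near-50% windows of all autosomes (x axis), Chd8+/- in red and WT in blue. The libraries lie between 75.4% and 100% in the stretches and between 25.1% and 28.2% in the other windows.

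The agreement ended over longer distances and across the strands. At 100 to 500 bp on the same strand, the median difference was 22.6 points at Grb10 and 20 points at Zrsr1, against 1.08 and 1.28 points within 20 bp. In the other near-50% windows these medians were 26.5 and 14.4 points. The strands of a single CpG differed by a median of 30 points in 35 measurements at Grb10 and 15.6 points in 15 at Zrsr1, and by 18.4 points in the other windows. At position 11976301 of the Grb10 stretch, the forward strand read 35.3% and 87.5% in Chd8+/- replicates 1 and 3, against 48.3% and 72.7% in WT replicates 2 and 3. The reverse strand there read 27.3% and 26.7% in the same Chd8+/- replicates and 79.4% and 23.1% in the same WT replicates. At 22922992 in the Zrsr1 stretch the forward strand read 54.4%, 74.8% and 41.6% in Chd8+/- and 23.2%, 39.1% and 44.3% in WT, and the reverse strand 60.7%, 45.1% and 86.9% in Chd8+/- and 25%, 73.4% and 61.5% in WT. Which strand was higher therefore differed between libraries. At 11976301 Chd8+/- replicate 2 was listed on the reverse strand only (73.1%) and WT replicate 1 on the forward strand only (21.1%). The part of such gaps in the spread between libraries was not tested.

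**Figure D3:**
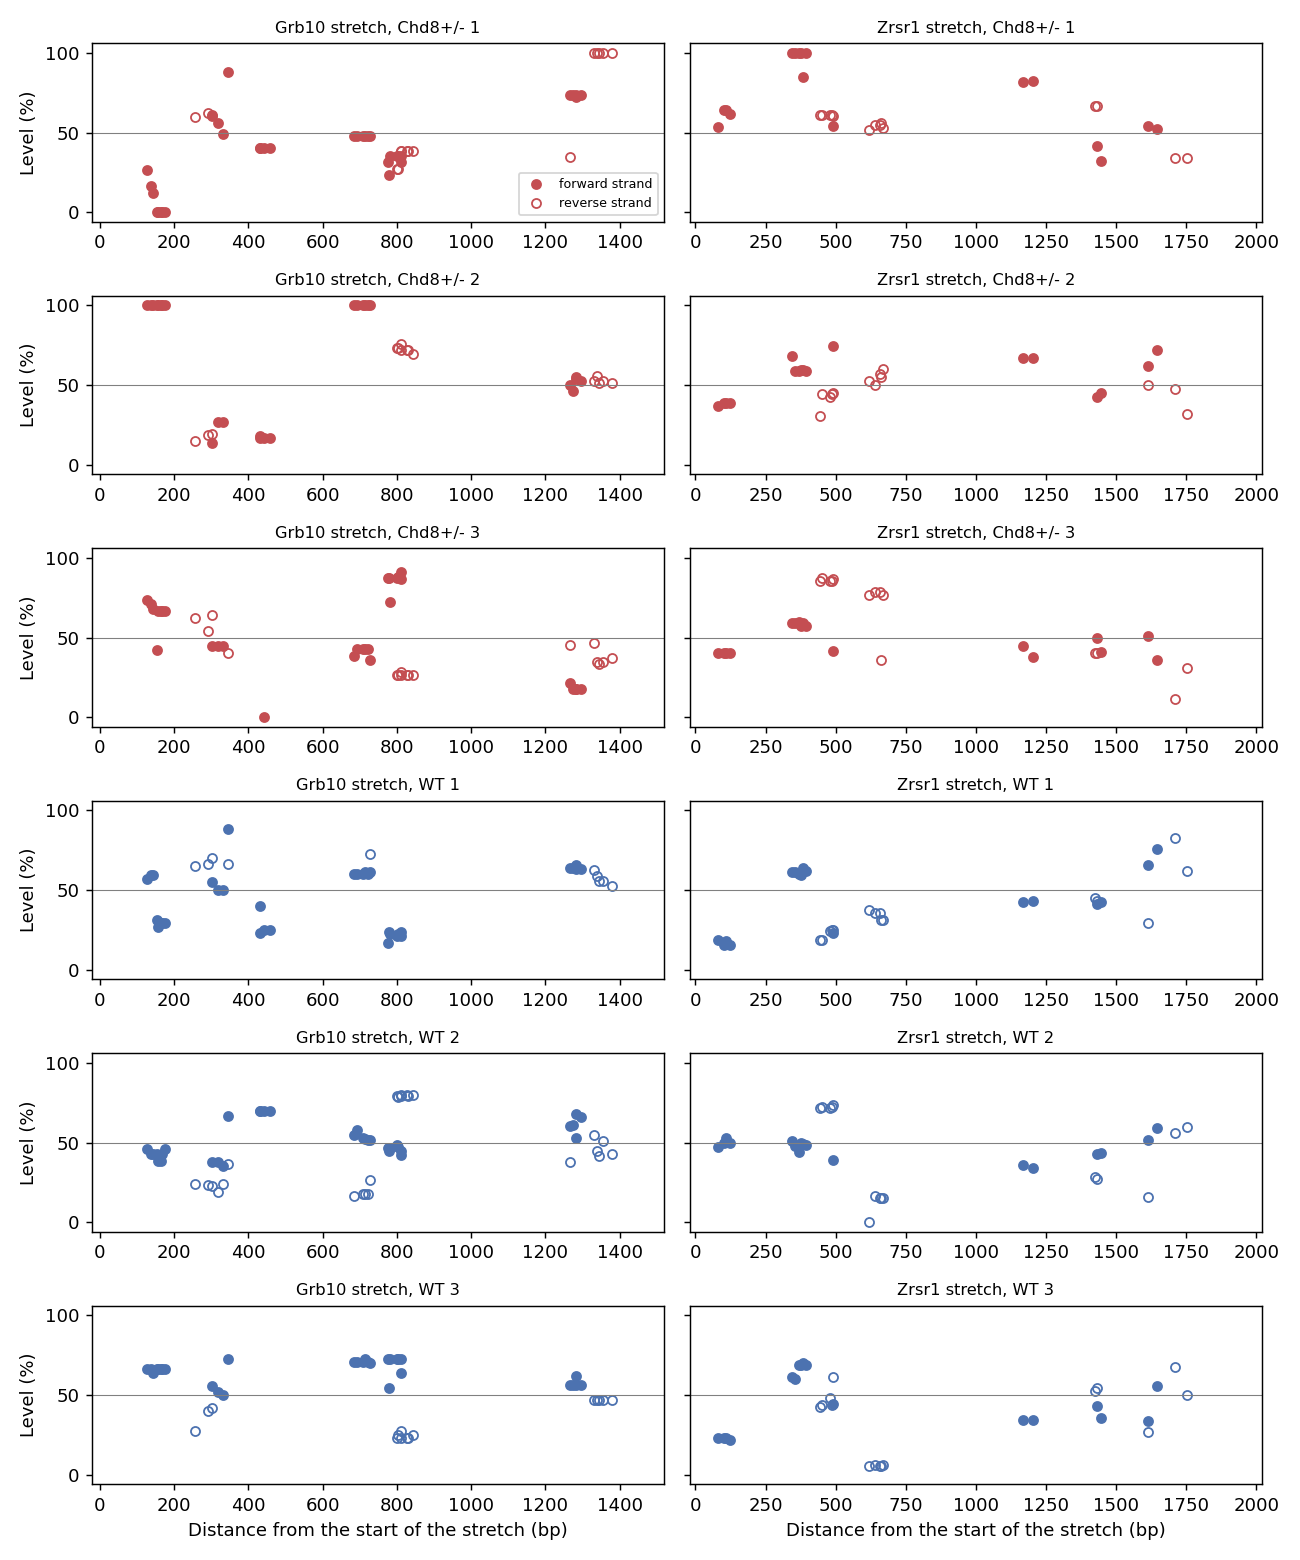
Level of each cytosine on the forward (filled) and reverse (open) strand (y axis, percent of reads) against the distance from the start of the stretch in bp (x axis), for the Grb10 stretch on the left and the Zrsr1 stretch on the right, with one row per library, Chd8+/- above WT. Levels form short plateaus on one strand, such as the forward-strand CpGs near the start of the Grb10 stretch, which read 26.3% or less in Chd8+/- replicate 1 and 100% in Chd8+/- replicate 2, and jump between plateaus.

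In the Grb10 stretch the spread between samples lay mostly among the Chd8+/- libraries. The SD over the 3 Chd8+/- samples was 13.5, 23.7 and 28.1 points in the 3 windows, against 7.95, 9.19 and 4.45 points over the 3 WT samples. In the 4 Zrsr1 stretch windows the SD was 12.9, 8.57, 9.86 and 10.2 points in Chd8+/- and 9.66, 14.9, 3.37 and 10.3 points in WT. Over the 9724 other near-50% windows of the autosomes the median SD was 10.8 points in Chd8+/- and 9.18 points in WT. In the 3 Grb10 windows the SD expected from read counts alone was 9.97, 9.96 and 9.31 points, averaged over the 6 libraries. This figure takes the mean coverage of a single CpG as the number of reads of the window. A window also holds CpGs covered by separate reads, so the figure can be too high. The Chd8+/- values lay above it, and the WT values cannot be judged against it. Levels of 100% in Chd8+/- replicates 1 and 2 in these windows rested on 11 to 16 reads per CpG. The difference in spread between the genotypes was not tested.

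Over the whole Grb10 interval the genotypes overlapped. The mean level was 30.1%, 36.0% and 29.1% in Chd8+/- and 28.4%, 30.004% and 37.8% in WT, which gave a difference of −0.284 points with a standard error of 3.60 and p = 1 by exact two-sided permutation. The sign of this difference depended on the processing, and without WT replicate 3, with CpGs chosen anew, it was 3.15 points and the genotypes did not overlap (exact permutation p = 0.2). Set against the rest of chromosome 11 from 22 to 23 Mb, the interval differed by −1.27 points between the genotypes, with a standard error of 2.67 (exact permutation p = 0.8). Against the rest of its own megabase, 11 to 12 Mb, it differed by 0.325 points with a standard error of 2.99 (exact permutation p = 0.9).

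Over the whole Zrsr1 interval the Chd8+/- samples were higher, at 44.7%, 51.6% and 47.7%, against 37.8%, 37.1% and 37.1% in WT. The difference was 10.7 points with a standard error of 2.01, and exact two-sided permutation gave p = 0.1, the lowest value possible with 3 samples against 3. Adjusted over the 5 interval comparisons made, the Benjamini-Hochberg value was 0.25. In the rest of the megabase, 214 CpGs stood at 35.2%, 43.8% and 37.0% in Chd8+/- and 37.9%, 36.4% and 38.7% in WT, a difference of 0.990 points. The Zrsr1 interval exceeded that rest by 9.50, 7.80 and 10.7 points in Chd8+/- and by −0.0714, 0.632 and −1.58 points in WT. This excess differed by 9.69 points between the genotypes with a standard error of 1.07 (exact permutation p = 0.1). Weighted by reads, the excess differed by 4.43 points and the genotypes overlapped, as they did with a minimum of 20 reads (5.35 points) and over windows (7.86 points).

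The Chd8+/- libraries were read less deeply at Zrsr1, and the part of this depth in the difference was not tested. Median coverage per CpG was 28, 38.5 and 32.5 reads in Chd8+/-, against 51, 60 and 54 reads in WT. With a minimum of 20 reads the interval difference was 5.44 points, the genotypes overlapped and the exact permutation p was 0.2. That minimum cannot isolate the depth of the Chd8+/- libraries, because it left out every CpG of the window from 22923001. These CpGs had 12 to 18 reads each in the WT libraries. Without that window, at the minimum of 10 reads, the interval difference was 7.72 points and the genotypes did not overlap. Among 3168 tiles of 30 kb with 50 or more CpGs on the autosomes, not matched on level and leaving out those that touch either interval, the difference ran from −6.74 to 10.4 points with a median of 0.505. Groups that do not overlap, with Chd8+/- higher, occurred in 6.79% of these tiles, and with Chd8+/- lower in 1.39%. Replicate 3 of both genotypes held more of its reads on chromosome X (2.56% and 2.58%) than the other libraries (1.18% to 1.21%). Without both replicates 3 the Zrsr1 difference was 10.7 points, with 2 samples per genotype.

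Window by window, no difference passed the threshold. With edgeR's quasi-likelihood test fitted over 92428 autosomal windows, 0 of 9 windows at Grb10 and 0 of 8 at Zrsr1 had an adjusted p under 0.05, as did 0 (0%) of all windows tested. At an unadjusted p under 0.05 stood 0 of 9 windows at Grb10 and 1 of 8 at Zrsr1, against a background of 3.56% of all windows for edgeR. With limma the counts were also 0 and 1, against 5.11%. The Zrsr1 window was the one from 22923001, with an edgeR p of 0.0126 and adjusted p of 1.00, and a limma adjusted p of 0.938. Counts summed over the CpGs of that window can hold the same read more than once. The next smallest edgeR p at Zrsr1 was 0.249, from 22922501. At Grb10 the smallest were 0.139 from 11987501, where the means were 1.14% in Chd8+/- and 0.0348% in WT, and 0.363 from 11988001. All of these had an edgeR adjusted p of 1.00. The window from 11987501 stood at 0%, 0% and 3.41% in Chd8+/- and 0%, 0.104% and 0% in WT. Its CpG at 11987761 read 70% on 10 reads in Chd8+/- replicate 3 and 0% in the other libraries.

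Of the 17 windows described, 11 had a higher mean in Chd8+/- and 6 a lower one, against a background of 51.4% higher over all windows. The median difference was 0.00177 points at Grb10 and 1.26 points at Zrsr1, against 0.0708 points over 94527 autosomal windows and 1.83 points over those of 35% to 65%. Groups that did not overlap were found in 1 of the 17, higher in Chd8+/-, where the background is 4.96% of windows higher and 3.83% lower. Among autosomal windows of 35% to 65% the background is 6.8% higher and 3.5% lower, against 1 of 8 and 0 of 8 here.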

How the data were processed

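Per the submitters' processing notes, reads were handled with Trim Galore 0.4.4, Bismark 0.20.0 and SAMtools 1.9 on mm39. Settings and deduplication are not given in the sources used here. The authors deposited, per library, the coverage of each CpG cytosine and strand as a count of reads (10 or more) and, as percent, its cytosine and thymine shares. Libraries summed to between 32285980 and 54818138 reads over cytosines, with the Chd8+/- libraries the shallower. Coverage times percent was rounded to whole methylated reads, and strands were merged by subtracting 1 from reverse-strand positions.

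Levels are unweighted means over CpGs. Interval means were compared by exact two-sided permutation, and windows by edgeR 4.0.16 (R 4.3.3) on methylated and unmethylated reads, with a coverage term per sample and Benjamini-Hochberg adjustment over all autosomal windows, or limma 3.58.1 with a pseudocount of 1. On simulated counts edgeR gave changed windows small unadjusted p-values and the right sign but made no adjusted call, whereas limma called part of the larger changes. A count of 0 from edgeR therefore does not show that windows were alike. The intervals, lists and tests were chosen with earlier results of these data known. Named were all stretch windows and, per interval, those of extreme level, spread or p, and the first, last, lowest and highest stretch CpG. No annotation on mm39 was used. Bisulfite conversion tables were not used here. Tables and permutation tests used scipy 1.17.1 and pandas 2.3.3 under Python 3.11.15, and figures matplotlib 3.10.9.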

Additional observations from a re-analysis of the deposited data

How the results depend on the processing

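For the whole Grb10 interval the difference of −0.284 points turned positive at CpGs covered in all 6 samples (2.46 points), weighted by reads (2.12), over windows (1.44), and without both replicates 3 (3.88), and ran from −2.49 to 3.15 over left-out samples. The Grb10 genotypes did not overlap without WT replicate 3 (3.15) or without both replicates 3 (3.88). The genotype difference in Grb10 minus the rest of 22 to 23 Mb turned from −1.27 to 2.03, 2.08 and 1.54 points at all-6 CpGs, over windows and without both replicates 3, and ran from −1.59 to 2.18 over left-out samples. The Grb10 stretch turned to −5.58 points at 20 reads and ran from −4.05 to 5.01. At Zrsr1 the interval difference kept its sign in all alternatives (5.44 to 10.9 points, 7.77 to 10.8 over left-out samples), as did its excess over the rest of 22 to 23 Mb (4.43 to 10.5, and 8.67 to 10.5). The Zrsr1 stretch difference of 15.3 points was 0.399 with a band of 40% to 60% and 11.1 with a band of 30% to 70%. At 20 reads it was 7.74 and weighted by reads 8.65. It was 9.77 without the window of smallest p, a window that also dropped out at 20 reads. Over left-out samples it ran from 11.5 to 18.1. No exact p fell below 0.1 in any of these, so the threshold says nothing of stability. The cause was not tested. edgeR called 0 windows in either interval under each alternative, and limma, run on the main windows, also called 0. Blocking on replicate number left edgeR with 0 calls, and for the Zrsr1 difference of 10.7 points the paired permutation test gave p = 0.25 (exact), its floor with 3 pairs. Deviations of same-numbered samples correlated at −0.00196, 0.00235 and −0.00333 over windows, so the numbers were not taken as pairs. The exclusions of the window of smallest p and of both replicates 3, and the coverage and 10-bp limits on CpG pairs, were chosen after the data were seen. Stretch windows had a median of 30.3 reads per CpG at Grb10 and 62.1 at Zrsr1, against 40.9 in other near-50% windows.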
